A study of Mus musculus with 25 samples.

Results

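Kinesins are motor proteins that use ATP to move along microtubules or to take them apart. Mitotic kinesins build the bipolar spindle, position chromosomes and complete cytokinesis, and transcripts of many of them rise in the cycle phases before and during division. Transport kinesins carry vesicles, organelles and protein complexes in dividing and resting cells alike, and in T lymphocytes they serve receptor trafficking and the microtubule array beneath the immunological synapse. The genes described here are the mouse kinesins named by a Kif or Kifc symbol on the array. A transcript cluster, the array's unit of about 1 gene, was taken where the probe table gave it exactly 1 symbol, made of Kif, a number and at most 1 letter, or of Kifc and a digit. The rule found 37 genes, each with 1 cluster, among the 19572 clusters with 1 symbol and the 22206 clusters tested. In the lists used here 13 are counted as mitotic, 15 as transport kinesins and 9 as ciliary or other kinesins. Kif2a was counted among the others, although Kif2b and Kif2c were counted as mitotic, so mitotic counts and medians leave Kif2a out. Kif1c, Kif17, Kif27 and Kif28 are not named in the probe table and were not analysed here.

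The 25 arrays hold RNA of thymic invariant natural killer T (iNKT) cells, T lymphocytes that recognise lipids on CD1d, from C57BL/6 mice. S3 cells carry NK1.1 and CD44, and S1_S2 cells lack NK1.1 and combine CD44-negative stage 1 with CD44-positive stage 2; all had been gated as CD24-negative cells that bind TCR beta antibody and CD1d tetramer. There were 1 dKOMst, 5 Mst1KO and 7 wild-type (WT) arrays of S3 cells, and 2 dKOMst, 4 Mst1KO and 6 WT arrays of S1_S2 cells. The study calls Mst1KO a single knockout of Mst1, a kinase of the Hippo pathway encoded by Stk4, and dKOMst a double knockout of Mst1 and Mst2. Thymocytes had been enriched with CD8 microbeads before the sort. The labels name no allele, Cre driver, sex or age and do not say whether each array came from its own animal, so p-values measure the spread between arrays, which may be technical.

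Values are log2 levels, so that a difference of 1 is a doubling. They are not compared between genes, because each gene is read by its own probes. A value counts as detected where it exceeds the median of that array's negative control items, which lay between 6.19 and 6.59. Stk4 was 9.22 to 9.40 on the Mst1KO S1_S2 arrays and 10.18 to 10.74 on the WT S1_S2 arrays (log2 difference -0.92, adjusted p = 0.0059 in limma). At S3 the Stk4 ranges overlapped, with 9.43 to 10.13 in Mst1KO and 9.69 to 10.73 in WT cells (adjusted p = 0.15). In dKOMst cells it was 10.08 at S3 and 9.63 and 10.27 at S1_S2. The labels do not say which exons were deleted, so the probes may lie outside the deleted part. Title numbers fall into a first set of 16 arrays with all Mst1KO samples and a second set of 9 with all dKOMst samples. WT arrays lie in both sets, which let a term for the set enter each fit, although the labels name no batch. The iNKT and T cell list (Cd3e, Cd3g, Zbtb16, Tbx21 and Klrb1c) averaged 10.71 to 12.13 on all arrays, and Klrb1c, which encodes NK1.1, was higher at S3 by 3.24 in WT cells. At an adjusted p under 0.05 in limma, 3 of the 5 genes were higher and 1 lower at WT S3 (-0.84 to 3.24). The shares of all clusters were 8.18% and 8.75%. In Mst1KO cells 2 were higher and 1 lower at S3 (-0.89 to 3.52), beside 5.58% and 4.62% of all clusters. Replicates 3 and 4 of each Mst1KO stage lacked Y-linked signal, which all other arrays had.

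Of the 37 kinesins, 19 exceeded the negative control median on all 25 arrays, 13 on some and 5 on none. The 5 never above it were Kif2b, a spindle depolymerase known mainly from testis, the neuronal heavy chain Kif5c, Kif21a, and the motile-cilium kinesins Kif6 and Kif9. Transport kinesins were the more evenly detected class, with 11 of 15 above it on all arrays and 12 or 13 above it on each array. Of the mitotic kinesins 4 of 13 were above it on all arrays, namely Kif18b, Kif20b, Kif22 and Kifc1, and 8 on some. On each S1_S2 array 10 to 12 mitotic kinesins were detected, in all 3 genotypes. On S3 arrays the number was 8 in dKOMst, 8 to 10 in Mst1KO and 5 to 9 in WT cells. Against a stricter limit, the 95th percentile of the negative controls (9.34 to 9.82), the only kinesins above it on all 25 arrays were Kif21b and Kif2a. Of the others, 29 kinesins stayed below it on every array. The map of all 37 genes shows where each value fell at or below the control median.

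**Figure D1:**
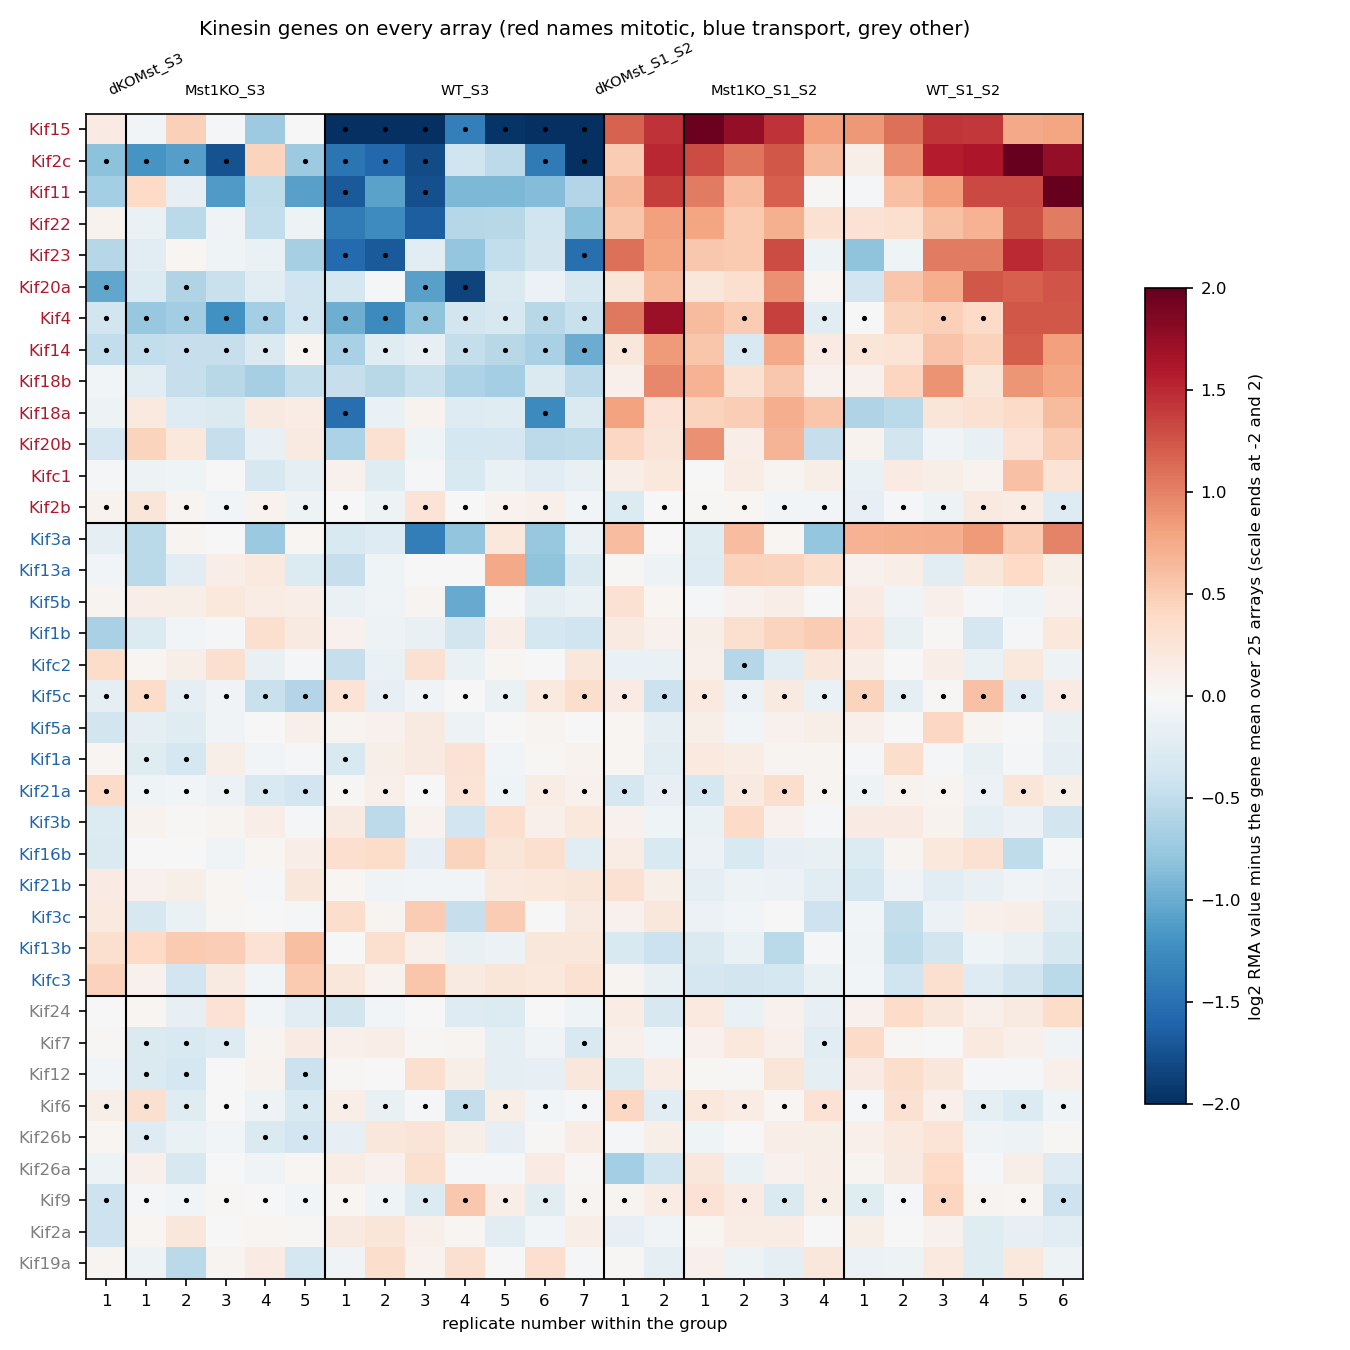
Log2 value of each kinesin on each of the 25 arrays minus that gene's mean over the arrays (colour, cut at -2 and 2), with mitotic, transport and other kinesins in 3 blocks down the page and the groups across, dKOMst, Mst1KO and WT at S3 and then at S1_S2. A dot marks a value at or below the array's negative control median. The upper rows of the mitotic block are high at S1_S2 in each genotype and low at S3, most so in WT S3, where Kif15 was not detected on any of 7 arrays, while most transport and other kinesins stay close to their means.

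The first comparison asks how kinesins differ between NK1.1-positive S3 and NK1.1-negative S1_S2 cells of WT mice. Of the 37 genes, 3 were higher and 12 lower at S3 at an adjusted p under 0.05, or 40.5% called against 16.9% of all 22206 clusters tested (8.18% higher and 8.75% lower). The mitotic class held 10 of the 12 lower genes: Kif2c, Kif4, Kif11, Kif14, Kif15, Kif18b, Kif20a, Kif22, Kif23 and Kifc1. The median log2 difference of the 13 mitotic kinesins was -1.27, and -1.06 with undetected groups set at the control level, beside 0.01 over all clusters. The 15 transport kinesins had a median of 0.04, with 3 higher and 1 lower, and the 9 others a median of -0.02, with 1 lower. Kif2a, counted among the 9 others, differed by 0.11 ± 0.06 (adjusted p = 0.28). In bulk RNA, fewer cells that contain a transcript and less of it per cell cannot be told apart. No call was lost when any 1 of the 13 WT arrays was left out, while Kif18a was gained without WT S3 replicate 3 (-0.68, adjusted p = 0.038) and Kif3c without WT S3 replicate 4 (0.37, adjusted p = 0.024).

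Kif15, a spindle motor that helps hold the poles apart beside Kif11, was lower at S3. On the 7 WT S3 arrays Kif15 lay between 4.71 and 5.94 (median 5.15), and on the 6 WT S1_S2 arrays between 8.07 and 8.75 (median 8.30). The groups did not overlap, and no WT S3 array exceeded its negative controls. The fitted difference was -3.19 ± 0.21 (SE, adjusted p = 4.4e-11). Because WT S3 gave only a background reading, a bound of -2.09 is the smallest size of the log2 difference that the values allow.

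Kif2c, a depolymerase that corrects faulty chromosome attachments, ranged from 5.01 to 6.63 (median 5.57) in WT S3 and from 7.15 to 9.07 (median 8.62) in WT S1_S2 cells. The ranges were apart, and 2 of 7 WT S3 arrays detected it (difference -2.61 ± 0.32, adjusted p = 1.8e-06). Kif11, the motor that pushes spindle poles apart, ranged from 6.13 to 7.29 (median 6.98) in WT S3 and from 7.85 to 9.87 (median 8.95) in WT S1_S2 cells. Its ranges were apart too, with 5 of 7 WT S3 arrays above the controls (-2.05 ± 0.25, adjusted p = 1.1e-06). Kif22 binds chromosome arms and pushes them towards the spindle equator. It lay between 6.70 and 7.94 (median 7.53) in WT S3 and between 8.64 and 9.62 (median 8.99) in WT S1_S2 cells. All of these arrays detected it and the ranges were apart (-1.61 ± 0.14, adjusted p = 7.7e-09).

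Kif18b controls the length of astral microtubules. Its values were 7.86 to 8.26 (median 8.02) in WT S3 and 8.64 to 9.44 (median 9.15) in WT S1_S2 cells, again without overlap and above the controls on every array (-1.06 ± 0.14, adjusted p = 6.8e-06). Kif4, a chromosome-bound motor that works with Prc1 at the spindle midzone, was undetected on the 7 WT S3 arrays (4.58 to 5.53) and detected on 3 of 6 WT S1_S2 arrays (5.87 to 7.10). Its fitted difference of -1.27 ± 0.21 (adjusted p = 6.4e-05) has a bound of -0.20 once the WT S3 values are raised to the control median. The WT S1_S2 values were left as read. Kif14, a cytokinesis kinesin, was likewise detected on none of 7 WT S3 arrays and on 5 of 6 WT S1_S2 arrays, and had a bound of -0.52 (fitted -1.13 ± 0.18, adjusted p = 5.2e-05).

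The cytokinesis motors Kif23 and Kif20a were also lower, with log2 differences of -1.56 and -1.29 and overlapping ranges. Kif23, the motor of centralspindlin, was 5.81 to 7.26 in WT S3 and 6.68 to 8.98 in WT S1_S2 cells (adjusted p = 0.00036). Kif20a, which carries the Aurora B complex to the midzone, was 5.32 to 7.15 in WT S3 and 6.79 to 8.42 in WT S1_S2 cells (adjusted p = 0.00013). Kifc1, a minus-end motor that focuses spindle poles, differed by -0.31 ± 0.09 (adjusted p = 0.015). Kifc1 has a near-identical copy on this array, Kifc5b, and probes may be shared between the copies. Kifc5b itself did not pass (-0.17, adjusted p = 0.17). The 3 mitotic kinesins not called were Kif18a (-0.57, adjusted p = 0.10), which damps chromosome movements, Kif20b (-0.35, adjusted p = 0.27) and the undetected Kif2b. For Kif4 the array also holds the pseudogene Kif4-ps, which was not called (-0.08, adjusted p = 0.76).

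Among transport kinesins the lower gene was Kif3a, a kinesin-2 subunit of vesicle and ciliary transport. Kif3a ranged from 6.56 to 8.14 (median 7.64) in WT S3 and from 8.44 to 8.93 (median 8.66) in WT S1_S2 cells. The ranges were apart, with all arrays above the controls, and the difference was -1.22 ± 0.22 (adjusted p = 0.00021). The subunits that pair with Kif3a did not pass: Kif3b differed by 0.05 (adjusted p = 0.88) and Kif3c by 0.28 (adjusted p = 0.16). Kifap3, the adaptor of the Kif3 complex, was called lower (-0.59, adjusted p = 0.012), but no array in any group exceeded its controls for Kifap3.

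The higher transport kinesins differed by less than 0.5. Kifc3, a minus-end motor, was 8.43 to 8.91 (median 8.58) in WT S3 and 7.82 to 8.68 (median 8.05) in WT S1_S2 cells, with overlap (0.46 ± 0.13, adjusted p = 0.012). Kif13b, which carries phosphoinositide and Dlg1 cargo, was 7.87 to 8.33 (median 8.11) in WT S3 and 7.51 to 7.95 (median 7.78) in WT S1_S2 cells, with overlap (0.34 ± 0.10, adjusted p = 0.014). Kif21b, which limits microtubule growth and in human T cells shapes the synapse array, was 11.77 to 12.08 (median 11.88) in WT S3 and 11.50 to 11.78 (median 11.71) in WT S1_S2 cells. The Kif21b ranges met at their edges (0.25 ± 0.06, adjusted p = 0.0043). In the other class Kif24, a centriole kinesin that restrains cilium formation, was 6.52 to 6.89 (median 6.80) in WT S3 and 6.97 to 7.25 (median 7.09) in WT S1_S2 cells, without overlap (-0.37 ± 0.10, adjusted p = 0.0096).

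Within the first number set alone (4 WT S3 and 3 WT S1_S2 arrays) 9 kinesins were called lower and 0 higher, beside 4.24% of all clusters lower and 4.41% higher. Within the second (3 against 3) 12 were lower and 2 higher, beside 4.49% lower and 4.08% higher. Kif15, Kif2c, Kif11, Kif22, Kif18b, Kif4, Kif14, Kif20a and Kif3a were called lower in each set. The smaller differences of Kif13b, Kif21b, Kif24 and Kifc1 passed in neither set alone. Kif23 (-1.11, adjusted p = 0.11) and Kifc3 (0.30, adjusted p = 0.43) did not pass in the first. Some markers of other cells were called with the stage. Of 5 myeloid markers Lyz2 and C1qa were higher at S3, with the list mean at 6.80 to 7.00 in WT S3 and 6.18 to 6.59 in WT S1_S2 cells. Of 5 measured double-positive thymocyte markers Dntt was higher (0.91, adjusted p = 0.024), with the list mean at 6.79 to 7.49 in WT S3 and 6.80 to 7.31 in WT S1_S2 cells. Rag2 stayed below the controls on all 13 WT arrays. Stage estimates were positive for 3 and negative for 2 of the myeloid markers, and positive for 2 and negative for 3 of the thymocyte markers. The B cell (3 measured) and thymic epithelium (4) lists and the erythroid gene Alas2 had no call. The part of any of these cells in the kinesin differences was not tested.

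**Figure D2:**
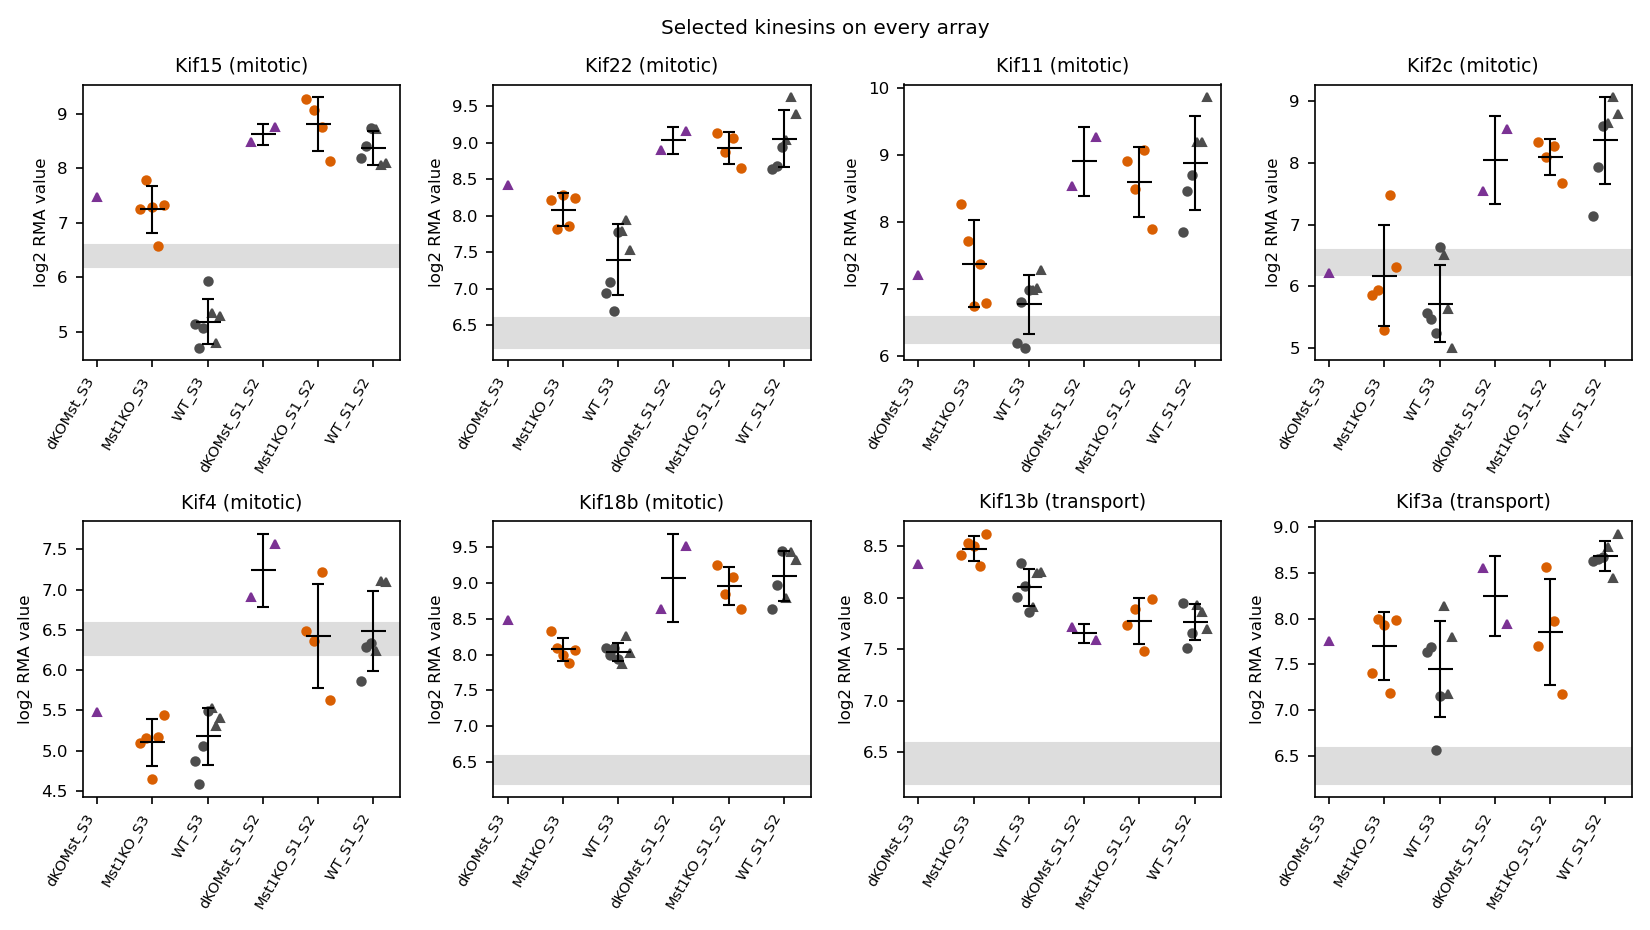
Log2 values of 8 kinesins on every array by group (dKOMst, Mst1KO and WT at S3, then at S1_S2), with circles for the first and triangles for the second number set, and bars for mean and SD where a group holds more than 1 array. The grey band spans the negative control medians (6.19 to 6.59). Kif15 in WT S3 lies below the band while Mst1KO and dKOMst S3 values lie at or above it. Kif2c and Kif4 fall into or below the band at S3 in all 3 genotypes, with exceptions on single arrays of Kif2c.

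Promoter windows are shown for the 4 mitotic kinesins with the largest fitted WT stage differences, and for Kif3a as the transport kinesin that was also lower, because these genes were lower together in the WT stage comparison and the windows hold cell-cycle promoter letters to different extents. Each window runs from 250 bases before to 50 bases after the RefSeq transcript start in build GRCm38.p6, written 5′ to 3′ on the strand of the gene. Capitals mark TTTGAA or its reverse complement TTCAAA, the core of an element known from cell-cycle genes repressed outside division. The Kif15 window lies at chr9:122950831-122951130 (+ strand), the Kif2c window at chr4:117178723-117179022 (minus strand), the Kif11 window at chr19:37376132-37376431 (+ strand), the Kif22 window at chr7:127042371-127042670 (minus strand) and the Kif3a window at chr11:53567119-53567418 (+ strand).
Kif15: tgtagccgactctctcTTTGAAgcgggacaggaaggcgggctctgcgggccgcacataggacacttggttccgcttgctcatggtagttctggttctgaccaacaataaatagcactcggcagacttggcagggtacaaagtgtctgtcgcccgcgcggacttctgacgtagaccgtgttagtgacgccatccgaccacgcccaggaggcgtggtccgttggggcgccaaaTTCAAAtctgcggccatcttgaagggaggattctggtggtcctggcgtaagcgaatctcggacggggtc
Kif2c: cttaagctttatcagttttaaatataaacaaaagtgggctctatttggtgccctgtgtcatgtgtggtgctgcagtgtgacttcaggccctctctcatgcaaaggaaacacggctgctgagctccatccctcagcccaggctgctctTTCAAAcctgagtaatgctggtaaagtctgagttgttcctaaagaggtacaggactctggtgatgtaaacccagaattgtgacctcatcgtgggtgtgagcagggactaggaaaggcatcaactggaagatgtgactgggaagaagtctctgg
Kif11: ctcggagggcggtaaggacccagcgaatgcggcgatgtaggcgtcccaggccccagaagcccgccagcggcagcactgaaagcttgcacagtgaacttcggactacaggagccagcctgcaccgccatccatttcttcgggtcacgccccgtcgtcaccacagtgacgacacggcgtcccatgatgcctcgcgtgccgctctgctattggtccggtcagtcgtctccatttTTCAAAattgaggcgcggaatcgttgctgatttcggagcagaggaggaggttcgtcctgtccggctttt
Kif22: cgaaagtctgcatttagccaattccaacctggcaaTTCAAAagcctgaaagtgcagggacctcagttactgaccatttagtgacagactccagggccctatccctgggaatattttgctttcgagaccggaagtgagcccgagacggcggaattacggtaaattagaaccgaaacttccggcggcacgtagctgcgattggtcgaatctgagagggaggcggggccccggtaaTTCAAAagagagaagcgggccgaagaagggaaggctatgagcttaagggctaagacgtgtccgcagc
Kif3a: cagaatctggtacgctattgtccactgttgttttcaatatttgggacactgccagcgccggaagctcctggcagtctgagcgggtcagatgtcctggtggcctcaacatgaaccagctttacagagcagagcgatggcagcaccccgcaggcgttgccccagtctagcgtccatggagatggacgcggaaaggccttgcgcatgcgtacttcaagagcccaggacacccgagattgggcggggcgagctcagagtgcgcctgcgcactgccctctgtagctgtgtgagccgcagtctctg
The letters begin 19 bases before the start in Kif15 and again 234 bases before it, 19 bases before it in Kif11, 17 and 215 bases before it in Kif22, and 103 bases before it in Kif2c. Kif3a has none in this window.

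RefSeq windows matched 29 of the 37 kinesins. TTTGAA on either strand was in the windows of 10 of 12 matched mitotic kinesins (83.3%), of 1 of 9 transport kinesins (Kif1a, 11.1%) and of 1 of 8 other kinesins (Kif26b, 12.5%), against 20.2% of the 27025 genes in the table. Among the 21050 windows with a GC content between 43.7% and 65%, 16.8% held it. The 2 matched mitotic kinesins without it were Kif18a, which was not called in any comparison, and the undetected Kif2b. Kif20b had it and was not called either. CCAAT, the letters bound by NF-Y, was in 8 of 12 mitotic windows (66.7%), in 3 of 9 transport and 3 of 8 other windows, and in 41.1% of all genes. TTCCCGC, an E2F-type letter run, was in 0 of 12 mitotic and 0 of 9 transport windows and in 2 of 8 others, against 5.29% of all genes. All 3 motifs were searched on both strands, and none of them contains another. A match describes the letters of the window and does not show a bound site.

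The second comparison takes the same step in the cells labelled Mst1KO. Of the 37 kinesins 2 were higher and 6 lower in Mst1KO S3 than in Mst1KO S1_S2 cells, or 21.6% called against 10.2% of all clusters (5.58% higher and 4.62% lower). All 6 lower genes were mitotic, namely Kif2c, Kif15, Kif4, Kif11, Kif18b and Kif22, and the higher genes were the transport kinesins Kif13b and Kif21b. The median of the 13 mitotic kinesins was -0.78, beside -0.04 over all clusters, and that of the 15 transport kinesins was -0.02. For the 9 ciliary or other kinesins limma called 0 (1 at an unadjusted p under 0.05), with all 9 estimates below 0 and a median of -0.16. Of these 9, 2 were undetected in both groups, Kif6 and Kif9. The 7 detected ones had the same median.

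Kif15 was 7.26, 7.79, 7.29, 6.58 and 7.32 on the Mst1KO S3 arrays, and 9.28, 9.07, 8.76 and 8.14 on the Mst1KO S1_S2 arrays. Every Mst1KO S3 array lay below every Mst1KO S1_S2 array, yet each detected the gene (-1.57 ± 0.25, adjusted p = 0.00011). Kif2c was 5.85, 5.93, 5.29, 7.48 and 6.31 in Mst1KO S3 and 8.33, 8.10, 8.27 and 7.68 in Mst1KO S1_S2 cells. Only replicate 4 of the Mst1KO S3 arrays exceeded its controls for Kif2c, and the groups did not overlap (-1.92 ± 0.39, adjusted p = 0.0016). Kif11 was 8.28, 7.72, 6.75, 7.37 and 6.79 in Mst1KO S3 and 8.92, 8.50, 9.07 and 7.90 in Mst1KO S1_S2 cells. Replicate 1 of the S3 arrays reached into the S1_S2 range (-1.22 ± 0.30, adjusted p = 0.0078), and with only arrays that have Y-linked signal the call was lost (-1.11, adjusted p = 0.12).

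Kif22 was 8.21, 7.81, 8.28, 7.86 and 8.24 in Mst1KO S3 and 9.13, 8.86, 9.06 and 8.65 in Mst1KO S1_S2 cells, without overlap (-0.84 ± 0.17, adjusted p = 0.0015). Kif18b was 8.33, 8.09, 7.996, 7.88 and 8.06 in Mst1KO S3 and 9.25, 8.85, 9.09 and 8.64 in Mst1KO S1_S2 cells, and was also apart (-0.88 ± 0.17, adjusted p = 0.0012). Kif4 was 5.09, 5.16, 4.64, 5.17 and 5.45 in Mst1KO S3 and 6.48, 6.36, 7.22 and 5.63 in Mst1KO S1_S2 cells. It was called (-1.32 ± 0.25, adjusted p = 7e-04), but no Mst1KO S3 array and only 2 of 4 Mst1KO S1_S2 arrays exceeded the controls. With only the S3 values raised to the control median and the S1_S2 values left as read, the difference was 0.08. That value sets no bound in the direction of the fit.

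Kif13b was 8.42, 8.53, 8.50, 8.31 and 8.62 in Mst1KO S3 and 7.73, 7.89, 7.48 and 7.98 in Mst1KO S1_S2 cells. The groups were apart (0.71 ± 0.12, adjusted p = 0.00016). Kif21b was 11.93, 11.97, 11.89, 11.83 and 12.06 in Mst1KO S3 and 11.66, 11.75, 11.73 and 11.63 in Mst1KO S1_S2 cells (0.24 ± 0.07, adjusted p = 0.031), a call lost without replicate 2 or 5 of Mst1KO S3 or replicate 1, 3 or 4 of Mst1KO S1_S2 (0.21 to 0.25, adjusted p up to 0.098). Kif3a, which was lower at S3 in WT cells, did not pass here (-0.15 ± 0.26, adjusted p = 0.78). Kif24 was 6.93, 6.72, 7.18, 6.83 and 6.68 in Mst1KO S3 and 7.07, 6.75, 6.97 and 6.72 in Mst1KO S1_S2 cells, overlapping (-0.01 ± 0.12, adjusted p = 0.97). Kif14 did not pass either (-0.63, adjusted p = 0.068). It exceeded the controls on 0 of 5 Mst1KO S3 and 2 of 4 Mst1KO S1_S2 arrays. With only the S3 values raised to the control median and the S1_S2 values left as read, the difference was -0.01. Without replicate 2 of Mst1KO S3, Kifc3 was called higher (0.48, adjusted p = 0.038). With all arrays Kifc3 was 8.45, 7.97, 8.53, 8.30 and 8.88 in Mst1KO S3 and 8.02, 7.98, 8.01 and 8.21 in Mst1KO S1_S2 cells, with overlap (0.37 ± 0.15, adjusted p = 0.13). Lyz2, C1qa, Dntt and the epithelial gene Epcam were higher at S3 here. Stage estimates were positive for 4 and negative for 1 of the 5 myeloid markers. They were positive for 3 and negative for 2 of the 5 measured thymocyte markers, and positive for 3 and negative for 1 of the 4 epithelial markers. The myeloid list means were 6.80 to 7.15 in Mst1KO S3 and 6.27 to 6.68 in Mst1KO S1_S2 cells. The thymocyte list means were 7.33 to 7.63 in Mst1KO S3 and 7.06 to 7.44 in Mst1KO S1_S2 cells. The part of any of these cells in the Mst1KO stage differences was not tested.

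Whether the stage difference itself depends on Mst1 was tested as the interaction of genotype and stage. Kif15 was the 1 kinesin called, with 1.63 ± 0.32 (adjusted p = 0.042), which is 2.7% of the 37 against 0.158% of all clusters (0.0901% higher and 0.0675% lower). The call lay close to the threshold. It was lost without any 1 of 12 of the 22 arrays, namely Mst1KO S3 replicates 1, 2, 3 and 5, WT S3 replicates 1, 3 and 6, Mst1KO S1_S2 replicates 2, 3 and 4 and WT S1_S2 replicates 2 and 4 (1.40 to 1.71, adjusted p up to 0.11). In the first number set alone it was 1.66 (adjusted p = 0.22). It also rests on WT S3 values below the controls, which read as background. For Kif3a the interaction was 1.06 ± 0.34 (adjusted p = 0.30), for Kif22 0.77 ± 0.22 (adjusted p = 0.23) and for Kif11 0.84 ± 0.38 (adjusted p = 0.49). No kinesin other than Kif15 was called, and 11 of the 13 mitotic estimates were positive (median 0.50, and -0.03 over all clusters). In the first number set alone the mitotic median was 0.12.

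**Figure D3:**
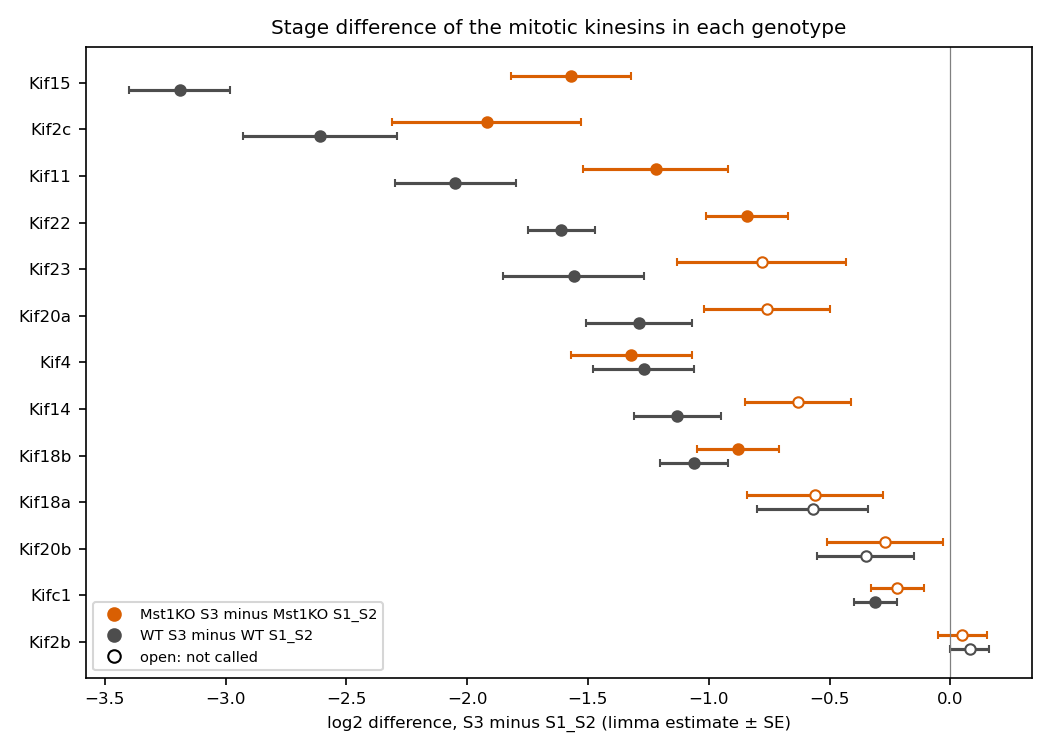
Difference between S3 and S1_S2 cells for each mitotic kinesin (log2, limma estimate with its standard error), in Mst1KO cells above and in WT cells below within each row. Filled points passed an adjusted p under 0.05. The Kif15 estimates are -1.57 in Mst1KO and -3.19 in WT cells, where the WT S3 readings lie below the controls and bound the difference at -2.09, while Kif4, Kif18a, Kif18b and Kif2b lie close together.

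The third comparison sets Mst1KO against WT cells within S3. Here 4 kinesins were higher and 1 lower, or 13.5% of 37 called against 6.37% of all clusters (3.73% higher and 2.64% lower). The higher genes were the mitotic Kif15, Kif11 and Kif22 and the transport kinesin Kif13b, and the lower gene was Kif26b. The median of the 13 mitotic estimates was 0.51, beside -0.05 over all clusters. Kif2b, Kif4 and Kif14 were below the controls on every S3 array of both genotypes, and the other 10 mitotic estimates were above 0, with a median of 0.64. Kif2a, counted in the other class, was at -0.09 ± 0.07 (adjusted p = 0.45). The transport median was 0.04 and that of the other class -0.16. The WT S3 arrays are the same as in the WT stage comparison, so the 2 comparisons share their values.

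Kif15 lay at 6.58 to 7.79 on the 5 Mst1KO S3 arrays given above and at 4.71 to 5.94 on the 7 WT S3 arrays. All 5 Mst1KO arrays detected Kif15 and no WT array did. The fitted difference was 2.01 ± 0.23 (adjusted p = 1.8e-05), and with WT at the control level Kif15 was at least 0.96 higher. Kif22, detected on all of these arrays, was 7.81 to 8.28 in Mst1KO S3 and 6.70 to 7.94 in WT S3 cells (0.95 ± 0.16, adjusted p = 0.0012). Its ranges overlapped, and its value depends on the set term. WT arrays of the second set were higher for Kif22 (7.53 to 7.94 in the second and 6.70 to 7.78 in the first set at S3), the set term was 0.61 (adjusted p = 0.013), and without that term the difference was 0.69 (adjusted p = 0.053). Kif15 and Kif22 were the kinesins still called within the first number set, which holds all Mst1KO arrays, and leaving out any 1 array kept both.

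Kif11 was 6.75 to 8.28 in Mst1KO S3 and 6.13 to 7.29 in WT S3 cells (0.96 ± 0.28, adjusted p = 0.042). The call was lost without any 1 of Mst1KO S3 replicates 1, 2 and 4 and WT S3 replicates 1, 3, 5 and 6 (0.73 to 0.96, adjusted p up to 0.099) and without the set term (0.61, adjusted p = 0.32). Kif23 had the largest difference that did not pass (1.04 ± 0.33, adjusted p = 0.06), at 6.83 to 7.52 in Mst1KO S3 and 5.81 to 7.26 in WT S3 cells, and passed without WT S3 replicate 3 (1.30, adjusted p = 0.023). Kif18a (0.63, adjusted p = 0.15), Kif2c (0.64, adjusted p = 0.30) and Kif20a (0.51, adjusted p = 0.22) did not pass either. Kif18b, which was lower at S3 in WT and in Mst1KO cells, differed by 0.07 ± 0.16 (adjusted p = 0.82). Kif4 and Kif14 were below the controls on all S3 arrays of both genotypes, so no difference is given.

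Kif13b was 8.31 to 8.62 in Mst1KO S3 and 7.87 to 8.33 in WT S3 cells, ranges that met at their edges (0.41 ± 0.11, adjusted p = 0.027). It was lost without Mst1KO S3 replicate 2 (0.40) or 5 (0.38) or WT S3 replicate 4 (0.36, adjusted p = 0.065), and within the first set (0.40, adjusted p = 0.086). Kif26b, whose family lacks motor activity, was 6.51, 6.63, 6.72, 6.49 and 6.38 in Mst1KO S3 and 6.60 to 7.03 (median 6.88) in WT S3 cells. These values lie near the controls, with 2 of 5 Mst1KO and 7 of 7 WT arrays above them (-0.36 ± 0.09, adjusted p = 0.02), and the call was lost within the first set (-0.33, adjusted p = 0.08), without Mst1KO S3 replicate 5 (-0.31) and without WT S3 replicate 3 (-0.32). Kif12 was called lower only without Mst1KO S3 replicate 4 (-0.40, adjusted p = 0.048) or with only arrays that have Y-linked signal. Kif5b, the heavy chain of the ubiquitous conventional kinesin, was 10.40 to 10.48 in Mst1KO S3 and 9.27 to 10.33 in WT S3 cells, without overlap but not called (0.38 ± 0.13, adjusted p = 0.085). Of 5 measured double-positive thymocyte markers Cd8b1 was higher in Mst1KO S3 cells (0.73, adjusted p = 0.018), and 4 of the 5 estimates were positive and 1 negative. The list mean was 7.33 to 7.63 in Mst1KO S3 and 6.79 to 7.49 in WT S3 cells, and Rag2 exceeded the controls on 1 of 5 Mst1KO S3 and 0 of 7 WT S3 arrays. No myeloid, B cell or thymic epithelium marker was called in that comparison. The part of such cells in the kinesin differences was not tested.

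**Figure D4:**
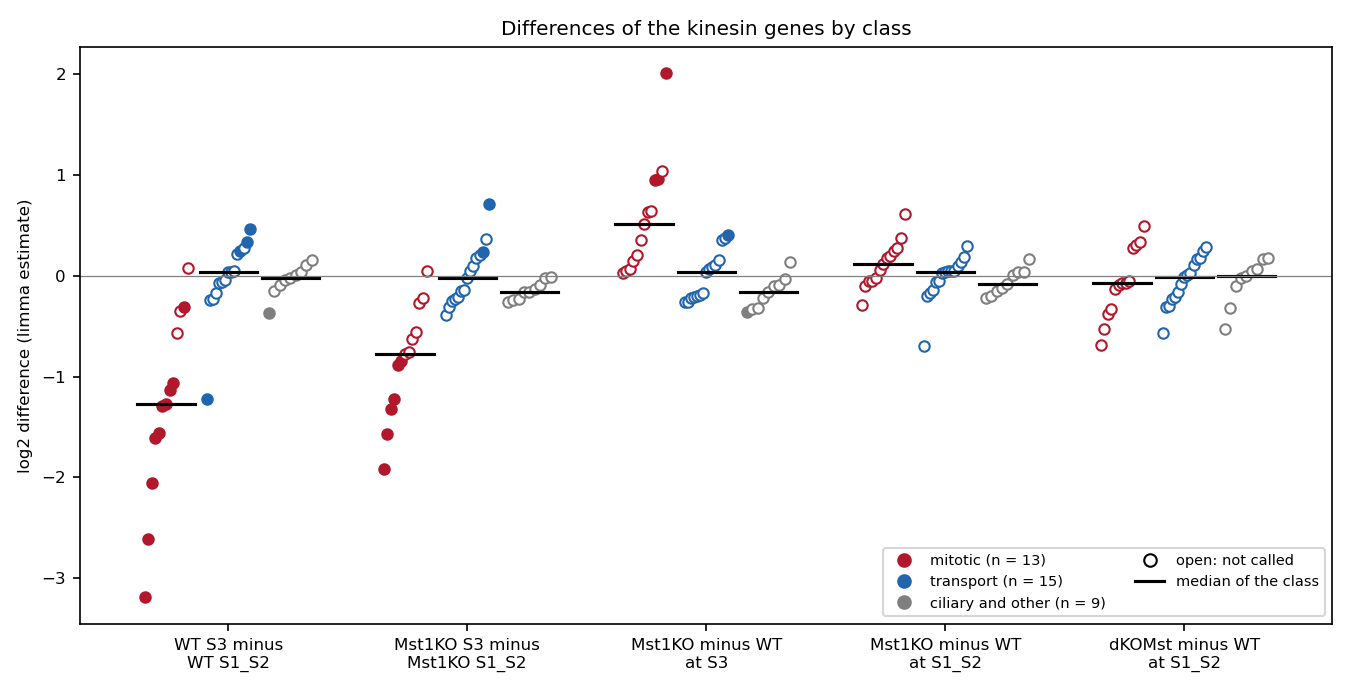
Log2 differences (limma estimates) of the 37 kinesins in 5 comparisons, each point a gene, by class, with filled points for an adjusted p under 0.05 and a bar at the median of the class. The mitotic medians are -1.27 and -0.78 for the stage step in WT and Mst1KO cells, and 0.51 for Mst1KO against WT cells at S3. The transport medians lie between -0.02 and 0.04 in all 5 comparisons.

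At S1_S2 neither knockout had a called kinesin. In Mst1KO against WT S1_S2 cells limma called 0 of 37 at an adjusted p under 0.05 (0.522% of all clusters), and 3 passed at an unadjusted p under 0.05. Those 3 were Kif18a (0.61 ± 0.29), Kif1b (0.30 ± 0.14), a motor of synaptic vesicle precursors and mitochondria, and Kif3a (-0.70 ± 0.27). Kif3a was 7.70, 8.56, 7.98 and 7.17 in Mst1KO S1_S2 cells and 8.44 to 8.93 in WT S1_S2 cells, with replicate 2 inside the WT range (adjusted p = 0.41). Kif15 was 8.14 to 9.28 in Mst1KO and 8.07 to 8.75 in WT S1_S2 cells (0.38 ± 0.26, adjusted p = 0.77). Standard errors of the mitotic kinesins reached 0.41, so that for the noisier genes only large differences could have passed.

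In dKOMst against WT S1_S2 cells limma likewise called 0 of 37 (0.923% of all clusters, with 0.554% higher and 0.369% lower), with 3 at an unadjusted p under 0.05. Kif26a was 7.80 and 8.09 in dKOMst and 8.23 to 8.88 in WT S1_S2 cells, without overlap (-0.53 ± 0.14, adjusted p = 0.074), and was called without the set term (-0.61, adjusted p = 0.027), with the set as a random block (-0.58, adjusted p = 0.041) and without WT S1_S2 replicate 6 (-0.61, adjusted p = 0.041). Kif21b was 12.15 and 11.97 in dKOMst and 11.50 to 11.78 in WT S1_S2 cells, also without overlap (0.29 ± 0.09, adjusted p = 0.17). Kif24 differed by -0.32 ± 0.15 (adjusted p = 0.46). Kif15 was 8.49 and 8.76, Kif22 8.90 and 9.16, and Kif11 8.54 and 9.27 in dKOMst S1_S2 cells, all inside or at the edge of the WT S1_S2 ranges over both sets. In the second set, which holds the dKOMst arrays, WT S1_S2 ranges were 9.04 to 9.62 for Kif22 and 9.20 to 9.87 for Kif11. The lower dKOMst value of each lay below that range. Kif20a had the mitotic estimate of largest size (-0.69 ± 0.34, adjusted p = 0.48), at 7.41 and 7.82 beside 8.37 to 8.42 in those WT arrays. Of the 13 mitotic estimates 4 were positive and 9 negative. The mitotic median was -0.07, and the number of dKOMst arrays, 2, limits the precision. Lyz2 (0.70, adjusted p = 0.037) and Itgam (0.93, adjusted p = 0.008) of the 5 myeloid markers were higher and Klrb1c was lower (-1.18, adjusted p = 0.02) in dKOMst S1_S2 cells. The myeloid estimates were positive for 4 and negative for 1 of the 5, with list means of 6.73 to 6.77 in dKOMst and 6.18 to 6.59 in WT S1_S2 cells. The part of such cells in the kinesin values was not tested.

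The 1 dKOMst S3 array has no replicate and was set, without a test, beside the 3 WT S3 arrays of its number set. Of the mitotic kinesins 6 lay above all 3 of those arrays, 6 within their range and 1, Kif20a, below it. Of all 37 kinesins 14 lay above and 10 below, against 26.6% above and 26% below over all clusters. Kif15 was 7.48 in dKOMst S3 and 4.79 to 5.36 in those WT S3 arrays, a difference of 2.34 from their mean. Kif22 was 8.42 in dKOMst S3 and 7.53 to 7.94 in those WT S3 arrays, and Kif18b was 8.49 in dKOMst S3 and 7.86 to 8.26 in WT S3. These 3 mitotic kinesins also exceeded all 7 WT S3 arrays, as did the transport kinesins Kif5b, Kifc2 and the undetected Kif21a. Kif1b, Kif2a, Kif5a, Kif5c, Kif9, Kif16b and Kif26a lay below all 7. The share of all clusters outside the range of the 7 arrays was not computed, so these positions are not read as a trait of the class. Kif11 (7.20 in dKOMst, 6.98 to 7.29 in WT) and Kif2c (6.21 in dKOMst, 5.01 to 6.51 in WT) lay within the range. Among the transport kinesins 5 lay above, 4 within and 6 below.

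**Figure D5:**
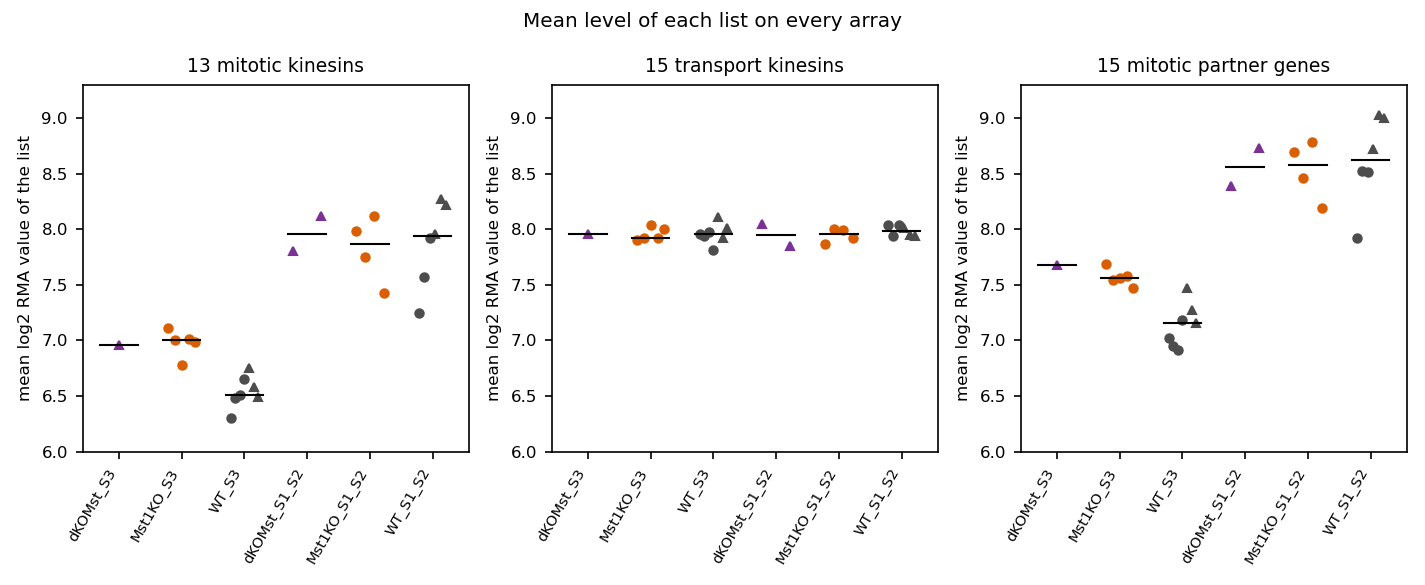
Mean log2 value over the 13 mitotic kinesins, the 15 transport kinesins and 15 mitotic partner genes on every array by group, with circles for the first and triangles for the second number set and a bar at the median of the group. The mitotic kinesin means are 6.96 in dKOMst, 6.78 to 7.11 in Mst1KO and 6.30 to 6.75 in WT S3 cells, and 7.80 to 8.12 in dKOMst, 7.43 to 8.12 in Mst1KO and 7.25 to 8.27 in WT S1_S2 cells. The transport means stay between 7.81 and 8.11 on all arrays.

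Averaged per array over the 13 mitotic kinesins, the level was 6.96 on the dKOMst S3 array, 6.78 to 7.11 on the Mst1KO S3 arrays and 6.30 to 6.75 on the WT S3 arrays. The Mst1KO S3 and WT S3 values did not overlap, but the gap was narrow, from 6.75 to 6.78. Kif15 is among the 13 genes averaged, with background readings of 4.71 to 5.94 in WT S3 and 6.58 to 7.79 in Mst1KO S3 cells. The arrays on either side of the gap were Mst1KO S3 replicate 3 (mean 6.78, Kif15 at 7.29) and WT S3 replicate 5 (mean 6.75, Kif15 at 5.36). Without Kif15 the order of these arrays reverses and the ranges overlap. The gap therefore rests on Kif15 and is not a trait of the whole class. Both S3 groups lay below every S1_S2 array, of which the lowest was 7.25 in WT. The 15 transport kinesins averaged 7.81 to 8.11 over all 25 arrays, with every group overlapping every other. Second-set arrays were slightly higher for mitotic kinesins: the set term was positive for 12 of 13, beside 8823 of the 22206 clusters (median 0.26, and -0.04 over all clusters). It was called for Kif20a (0.75, adjusted p = 0.044) and Kif22, and for 6.13% of all clusters.

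A list of 15 genes whose products work with mitotic kinesins was set beside them. All 15 genes were lower in WT S3 than in WT S1_S2 cells (median -1.51), beside 8.75% of all clusters. In Mst1KO S3 against Mst1KO S1_S2 cells 14 of 15 were lower (median -0.91), beside 4.62%. For 1 of these 14, Ckap2, no Mst1KO array of either stage exceeded the controls. Between Mst1KO and WT S3 cells 7 of 15 were higher (median 0.59), beside 3.73%. Ect2 and Ckap2 are kept in these counts and medians, although no Mst1KO S3 or WT S3 array exceeded its controls for either gene. At S1_S2 limma called 0 of 15 in Mst1KO cells (1 at an unadjusted p under 0.05) and 0 of 15 in dKOMst cells (2 unadjusted). For the dependence on stage limma called 0 of 15 as well, with 7 at an unadjusted p under 0.05 and all 15 estimates above 0. Racgap1, which forms centralspindlin with Kif23, was 7.87 to 8.47 in Mst1KO S3 and 6.29 to 8.04 in WT S3 cells (1.09 ± 0.26, adjusted p = 0.014), and was the member not called for the Mst1KO stage step (-0.48, adjusted p = 0.30). Tpx2, which targets Kif11 to the spindle, was 7.27 to 7.58 in Mst1KO S3 and 6.63 to 7.35 in WT S3 cells (0.59 ± 0.14, adjusted p = 0.016). Prc1, the midzone partner of Kif4, was lower at S3 in WT cells (-1.20 ± 0.16, adjusted p = 6.3e-06) but was not called between genotypes at S3 (0.32 ± 0.18, adjusted p = 0.30). Nusap1, a spindle microtubule bundler, had the largest S3 difference on the list (1.19 ± 0.25, adjusted p = 0.0069), and Bub1, a checkpoint kinase, the largest WT stage difference (-2.21 ± 0.27, adjusted p = 1.2e-06).

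Cenpe, a kinetochore kinesin whose symbol falls outside the naming rule, was 7.04 to 7.81 in Mst1KO S3 and 5.55 to 7.31 in WT S3 cells, with overlap (0.95 ± 0.22, adjusted p = 0.012). Its stage difference was -1.34 ± 0.23 in Mst1KO and -2.24 ± 0.19 in WT cells (adjusted p = 0.00028 and 4.6e-09). Mki67, a marker of cycling cells, was 9.89 to 10.45 in Mst1KO S3 and 8.36 to 9.45 in WT S3 cells, without overlap (1.42 ± 0.13, adjusted p = 1.4e-06), and 10.77 on the dKOMst S3 array. Its Mst1KO difference was larger at S3 than at S1_S2 by 1.14 ± 0.19 (adjusted p = 0.0063).

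Cargo adaptors of transport kinesins are the other partners measured. Of 14, 1 was higher and 2 were lower in WT S3 than in WT S1_S2 cells (8.18% and 8.75% of all clusters), and 3 were higher in Mst1KO than in WT S3 cells (3.73% of all clusters). The 2 lower genes include Kifap3, which no array detected. Klc1, a light chain that links conventional kinesin to cargo, was higher in Mst1KO cells at each stage. It was 10.21 to 10.37 in Mst1KO S3 and 9.69 to 10.34 in WT S3 cells (0.44 ± 0.09, adjusted p = 0.0082). At S1_S2 it was 10.05 to 10.27 in Mst1KO and 9.34 to 10.03 in WT cells, without overlap (0.52 ± 0.11, adjusted p = 0.019). Kifbp, which binds and holds back several kinesin motors, was 6.77 to 7.00 in Mst1KO S3 and 5.60 to 6.76 in WT S3 cells, where 2 of 7 arrays detected it (0.90 ± 0.23, adjusted p = 0.021). Fez2, a kinesin adaptor, was the gene higher at S3 in WT (0.56, adjusted p = 9e-04) and in Mst1KO cells (0.77, adjusted p = 0.00046), as well as in Mst1KO against WT S3 cells (0.43, adjusted p = 0.05, just under the threshold before rounding).

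For the minus-end motor dynein and its activator dynactin limma called 0 of 20 genes for the WT stage step (4 at an unadjusted p under 0.05), against 16.9% of all clusters. Of these 20, 3 were higher in Mst1KO than in WT S3 cells (3.73% of all clusters): Dctn2 (0.40, adjusted p = 0.013), Pafah1b1 (0.36, adjusted p = 0.018) and Dync1i2 (0.35, adjusted p = 0.012). Of 14 tubulins, the subunits of the track, 5 were lower at S3 in WT cells (8.75% of all clusters) and 5 were higher in Mst1KO than in WT S3 cells (3.73%). Tuba1b, an abundant alpha tubulin, was 10.22 to 10.55 in Mst1KO S3 and 9.79 to 10.10 in WT S3 cells, without overlap (0.49 ± 0.08, adjusted p = 0.0015). In dKOMst S1_S2 cells 3 beta tubulins were higher than in WT S1_S2 cells (0.554% of all clusters). Tubb2b was 8.40 and 8.48 in dKOMst and 6.12 to 7.36 in WT S1_S2 cells (1.59 ± 0.26, adjusted p = 0.0015), and Tubb2a (0.95, adjusted p = 0.0099) and Tubb4b (0.55, adjusted p = 0.025) were the others. Tubulin genes are close copies of each other, so probes of 1 member may read another.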

How the data were processed

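RNA of 25 samples of sorted thymic iNKT cells was amplified by the NuGEN WTA Pico protocol and measured on Clariom S arrays, per the labels' protocols. The values are log2 levels that the authors deposited (3.04 to 13.65, with array medians of 7.28 to 7.39). RMA and Affymetrix Expression Console 1.1 are the tools that the submitters' processing notes name, and no genome build is stated there. Of 28846 items 6640 control items were left out of the tests. Kinesins were taken by symbol, and the highest-mean cluster per symbol was to be used, but each had 1. The two-sided tests came from limma 3.58.1 (R 4.3.3; functions lmFit and eBayes), in which each of the 6 groups has its mean and the number set adds a term (titles 501 to 528 against 533 to 543), leaving 18 residual degrees of freedom. Benjamini-Hochberg adjustment ran over 22206 clusters, and a call is an adjusted p under 0.05. Errors after ± are standard errors of the model. Where no array of 1 group exceeded its negative control median, the difference is also given as a bound. That group's values are then raised to the control median and the other group's are left as read. For a kinesin that neither group detected, the text gives no single difference. Figures, class medians and sign counts keep such kinesins unless stated. For the partner gene Kifap3 the difference is given with that limit.

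The kinesin rule, the classes, the partner and marker lists, and the tests were chosen with earlier results of these data known. Array values are given for mitotic kinesins called in at least 2 comparisons and for the 6 other kinesins with the smallest adjusted p; other kinesins are given by range. Partner genes are named when called with a large difference, up to 3 per list and comparison; Cenpe, Kifc5b, Prc1, Racgap1, Tpx2, Stk4 and Mki67 are named whatever their test. Promoter windows come from a RefSeq table of build GRCm38.p6. The fits were tested on simulated data. The alternatives left out or changed the set term, normalized or centred again, filtered dim clusters, took title pairs as a block, changed the variance model, weights or minimum fold (1.2), and left out sets or arrays. The number of arrays limits the precision.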

Additional observations from a re-analysis of the deposited data

Results flagged for a closer look

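Kif15 was flagged because its Mst1KO difference was larger at S3 than at S1_S2 by 1.63 on the log2 scale, by the interaction term in limma (adjusted p = 0.042). It was 2.01 higher in Mst1KO than in WT cells at S3 (all 5 Mst1KO arrays above all 7 WT arrays) and 0.38 higher at S1_S2, where the ranges overlapped. WT S3 values lay below the negative controls. Their part in the size of the interaction was not tested.

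Kifc3 was flagged in Mst1KO S1_S2 cells because replicate 4, at 8.21, stood apart from the other 3 arrays of its group, which lay at 7.98 to 8.02. It was 1 flag among 56 groups tested, and chance flags about 1 in 20. That replicate is 1 of the 2 Mst1KO S1_S2 arrays without Y-linked signal.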

How the results depend on the processing

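The labels give no replicate numbers and state no pairing. Taking arrays of 1 genotype whose title numbers lie 16 apart between the stages in the first set, or 6 apart in the second, gives 11 possible pairs. Deviations of the paired arrays correlated between -0.11 and 0.17, above 0.1 in 2 of the 10 pairs that allow a value, and 3 of those 10 S3 arrays correlated best with their own S1_S2 array. With these pairs as a random replicate block the counts of kinesins called stayed at 3 higher and 12 lower for the WT stages and at 1 for the stage dependence, no call of a kinesin was gained or lost in any comparison, and over all clusters the stage dependence had 53 calls in place of 35. For each kinesin the array holds 1 cluster, so choosing the cluster with the largest interquartile range gives the same values. Apart from leaving out arrays, no called difference changed sign under the alternatives, 319 values of single kinesins kept their side of the threshold, 15 gained a call and 44 lost theirs. In WT cells across the stages the count of higher kinesins fell to 0 with a minimum fold of 1.2 and to 0 in the first number set alone, where the transport median was -0.09. In Mst1KO cells across the stages 1 kinesin was higher, in place of 2, without the set term, with the set as a random block, with the minimum fold, with Y-linked arrays only, with only the groups compared and in the first set alone; leaving out 1 array gave 1 to 2 higher and transport medians of -0.09 to 0.08. For Mst1KO against WT cells at S3, 2 were higher and 0 lower without the set term, with the minimum fold, with only the groups compared and in the first set alone, 0 were lower after quantile normalization, and the transport median was -0.15 with Y-linked arrays only. Leaving out 1 array there gave 2 to 4 higher, 0 to 2 lower and transport medians of -0.06 to 0.10. The stage dependence had 0 kinesins with the minimum fold, with Y-linked arrays, with only the groups compared and in the first set alone (mitotic median 0.12), and 0 to 1 on leaving out 1 array (transport median -0.13 to 0). In dKOMst against WT S1_S2 cells 1 was lower without the set term and with the random block, 1 was higher with a trended robust variance, and leaving out 1 array gave 0 to 1 lower and transport medians of -0.20 to 0.10. Against the 95th percentile of the negative controls 2 kinesins, in place of 19, were above the limit on every array. Over all clusters the WT stage count of 3760 became 1160 with the minimum fold and 1921 and 1904 in the first and second sets alone, and the Mst1KO stage count of 2266 became 672 with the minimum fold and 953 with Y-linked arrays only. For Mst1KO against WT cells at S3 the count of 1415 became 731 without the set term, 858 with the random block, 73 with the minimum fold, 475 with Y-linked arrays only and 679 in the first set alone, and was also over 1.5 times lower with only the groups compared. Apart from leaving out arrays, the counts of 116 for Mst1KO at S1_S2, 35 for the stage dependence and 205 for dKOMst ranged from 16 to 151, 0 to 55 and 42 to 343. Single arrays also moved these counts by over 1.5 times. The 1415 calls became 871 without Mst1KO S3 replicate 2 and 783 without replicate 5, and the 205 became 33 without dKOMst S1_S2 replicate 1 and 107 without replicate 2. The 116 became 66 to 77 without WT S1_S2 replicate 1 or 2 or any 1 Mst1KO S1_S2 array. The 35 became 14 to 23 without WT S1_S2 replicate 2 or 5, WT S3 replicate 1, any 1 Mst1KO S1_S2 array or Mst1KO S3 replicate 2, 3, 4 or 5, and 61 without WT S1_S2 replicate 3. The cause of these changes was not tested. The second set alone for the WT stages and the title pairs were added after the data were seen. Signals near the negative controls limit Kif2b, Kif4, Kif5c, Kif6, Kif9, Kif14 and Kif21a most. Within S3 they also limit Kif15 in WT cells (0 of 7 arrays above the controls) and Kif2c in WT (2 of 7) and Mst1KO cells (1 of 5). Kif26b in Mst1KO S3 cells (2 of 5) is limited too.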
